A study of Mus musculus with 22 samples.

Results

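The livers of 3 mice given rAAV9.CB.ST3GAL5.E332K were compared with the livers of 4 mice given rAAV9.Syn1.ST3GAL5.miR122BS, 7 of the 22 livers of the series, with the groups taken from the treatment named for each animal. They are called E332K and SYN1 livers here. All 7 animals were male WT C57BL/6 pups that had an intravenous injection on postnatal day 1 and were sacrificed 36 hours later, and liver mRNA was sequenced. The rAAV9.CB.ST3GAL5.E332K vector carries human ST3GAL5, the GM3 synthase that adds sialic acid to lactosylceramide, with a change named E332K in the coding sequence, behind CB, a promoter active in most cell types. The rAAV9.Syn1.ST3GAL5.miR122BS vector carries ST3GAL5 behind the neuronal Syn1 promoter, with binding sites for miR-122, a microRNA abundant in hepatocytes, in its transcript.

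The vectors differ in promoter, in microRNA sites and in the E332K change, and the parts of these in a difference between the groups cannot be told apart. Neither the dose nor the litter of a pup is in the labels. A p-value here sets the difference between the groups against the spread of these particular livers within each group. It does not separate the vector from dose or litter. Neither vector's transcript was analysed here. Livers of mice given AAV9.empty (n = 4) and rAAV9.CB.ST3GAL5 without E332K (CB, n = 3) are used below only to place the values.

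The 7 libraries held 17164502 to 20717386 expected counts, and 14767 of the 55291 genes had enough counts to be tested. The hepatocyte gene Alb, which encodes albumin, was at 38999.5 to 46130.4 CPM (counts scaled to the size of each library) in E332K and 43791 to 54165 CPM in SYN1 livers. Single libraries stood apart in genes of other tissues or in ribosomal RNA. Cym, the gastric protease chymosin, was at 2008 CPM in SYN1 2 and at 2.59 to 4.64 CPM in the other 6 livers. Acta1, skeletal muscle actin, was at 238 CPM in SYN1 3 and at 0.123 to 3.05 CPM elsewhere. CT010467.1, which GENCODE annotates as ribosomal RNA, was at 27199 CPM in E332K 3 and at 3259 to 8853 CPM in the others. These genes were chosen after their values were seen. None of the 3 passed the test (adjusted p = 0.193, 0.242 and 0.451), and counts of changed genes are also given without single livers.

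As background, proteins that enter the endoplasmic reticulum (ER) are folded there by chaperones such as BiP (the product of Hspa5) and by disulphide isomerases, and a surplus of unfolded protein releases BiP from the sensors IRE1, PERK and ATF6. Together these set off the unfolded protein response, in which spliced XBP1 and cleaved ATF6 raise genes for chaperones and for disposal of misfolded protein. PERK slows translation and, through ATF4, raises CHOP (Ddit3) and other stress genes. Hepatocytes, which secrete most plasma proteins, rely heavily on this system.

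With both an adjusted p up to 0.05 and at least a 2-fold change required, 108 genes (0.731% of the genes tested) differed between the groups, of which 96 (0.65%) were higher in E332K livers and 12 (0.0813%) were lower. At the adjusted p alone, 275 genes (1.86%) differed, 244 (1.65%) higher and 31 (0.21%) lower. In 2016 genes (13.7%) the values of the 2 groups did not overlap. The genes that were higher included chaperones and degradation factors of the ER, some acute-phase proteins and Ddit3 (CHOP) with several other genes of the ATF4 and CHOP response. Without single livers the 108 genes became 65 to 125. The smallest number was without E332K 3, which left 65 genes higher and 0 lower at both thresholds, and the largest without E332K 1 or without SYN1 2.

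**Figure D1:**
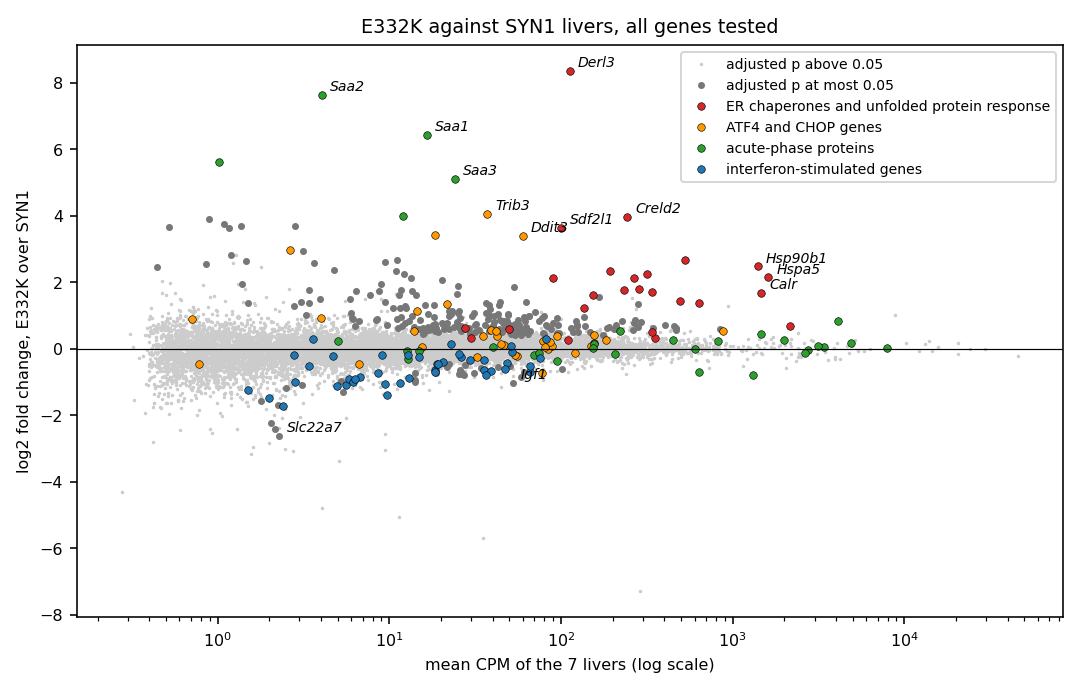
Log2 fold change of E332K over SYN1 livers (vertical axis) against the mean CPM of the 7 livers (log scale) for the 14767 genes tested, with 4 gene lists in colour. Derl3, Saa2 and Saa1 lie farthest above 0, the genes of ER chaperones and the unfolded protein response (red) lie above 0 over the whole range of levels, and the most negative points, among them Cym and Acta1, did not pass the test.

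Of the 26 genes listed for ER chaperones and the unfolded protein response, all were tested, 18 were higher in E332K livers and 0 were lower. Each of the 18 was higher by at least 2-fold. Of all genes, 1.65% were higher at the adjusted p alone and 0.65% at both thresholds. The median log2 difference of the 26 was 1.69, with all 26 above 0, while the median over all genes was -0.000575. Hspa5, the gene of BiP, was at 2311, 2999 and 3377 CPM in E332K 1, 2 and 3 and at 638, 667, 625 and 676 CPM in SYN1 1 to 4. The lowest E332K liver was thus more than 3 times the highest SYN1 liver. The fitted difference was 4.44-fold (log2 2.15 ± 0.13, SE, adjusted p = 1.26e-05). Hsp90b1, which encodes the ER chaperone GRP94, was at 2199, 2716 and 3031 CPM against 494, 538, 418 and 445 CPM, a 5.59-fold difference (log2 2.48 ± 0.14, adjusted p = 5.38e-06). Its values did not overlap either, and per transcript length Hspa5 and Hsp90b1 were close in E332K livers, at means of 1198 and 1019.6 TPM (transcript abundance scaled for length and depth). Exons of Hsp90b1 overlap those of other annotated genes on both strands, and these libraries were not counted by strand.

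The steepest rise was in Derl3 (chr10:75893413-75895941, GRCm38), which encodes Derlin-3, a membrane protein of the channel that returns misfolded protein to the cytosol. It was at 146, 244 and 398 CPM in the E332K livers and at 0.586, 2.32, 0.263 and 0.199 CPM in the SYN1 livers, where SYN1 2 was the highest. The log2 difference was 8.36 ± 0.56 (adjusted p = 1.95e-05), and it ranged from 7.94 without E332K 3 to 9.54 without SYN1 2. Creld2, a disulphide isomerase of the ER, was at 344, 523 and 701 CPM against 30.6, 38.2, 30.7 and 33.6 CPM (15.7-fold, adjusted p = 5.38e-06). Sdf2l1, a cofactor of BiP's cycle, was at 152, 202 and 283 CPM against 18.7, 22, 16 and 11.1 CPM (12.5-fold, adjusted p = 1.95e-05). Pdia4, a disulphide isomerase of the same compartment, was at 799, 965 and 1314 CPM against 150.0, 195, 150.2 and 147 CPM (6.38-fold, adjusted p = 1.75e-05). In Derl3, Creld2, Sdf2l1 and Pdia4 alike, E332K 1 was the lowest and E332K 3 the highest of its group.

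The other members that rose did so by 2.34-fold to 5.11-fold. Among other isomerases and lectin chaperones, Calr, the gene of calreticulin (3.22-fold), Pdia6 (2.72-fold) and Pdia3 (2.62-fold) were higher. Among BiP's J-domain cochaperones, Dnajb9 (4.37-fold), Dnajc3 (3.43-fold) and Dnajb11 (3.09-fold) were higher, as were its nucleotide exchange factor Hyou1 (4.76-fold) and the secreted factor Manf (4.34-fold). Manf shares exon positions with Rbm15b on the same strand. In the degradation branch, Syvn1, the ubiquitin ligase HRD1, was 5.11-fold higher, its adaptor Sel1l 3.25-fold, Herpud1 3.52-fold and the mannosidase-like Edem1 2.34-fold.

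Genes of the sensors themselves and of XBP1 did not pass the test. Xbp1 was at 151, 163 and 184 CPM in E332K and 133, 177, 150.1 and 126 CPM in SYN1 livers, with overlapping values (log2 0.18 ± 0.13, adjusted p = 0.59), and spliced and unspliced Xbp1 mRNA are not separated in counts per gene. Atf6 was at 51.2, 72 and 63.1 CPM against 38.3, 33.8, 48.8 and 41.9 CPM, which did not overlap and still missed the threshold (log2 0.61 ± 0.14, adjusted p = 0.0654). Ern1, which encodes IRE1, had a log2 difference of 0.34 ± 0.17 (adjusted p = 0.405) and Eif2ak3, which encodes PERK, of 0.64 ± 0.18 (adjusted p = 0.133). The other 4 members that missed the threshold were P4hb (adjusted p = 0.0531), Sec61a1, Canx, the gene of calnexin, and Sec61b, with log2 differences of 0.28 to 0.68. Xbp1, Atf6, Ern1, Eif2ak3 and these 4 are named here after their values were seen, as are Pdia6, Manf and the other members past the 4 with the smallest adjusted p.

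The count of 18 was between 18 and 20 in the 7 fits without 1 liver and between 14 and 22 over all alternatives, with 14 in limma's test on log2(TPM + 1) without a filter and 22 by DESeq2, without a filter on low counts, with all 6 groups in the fit or with an erythroid score as a covariate.

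**Figure D2:**
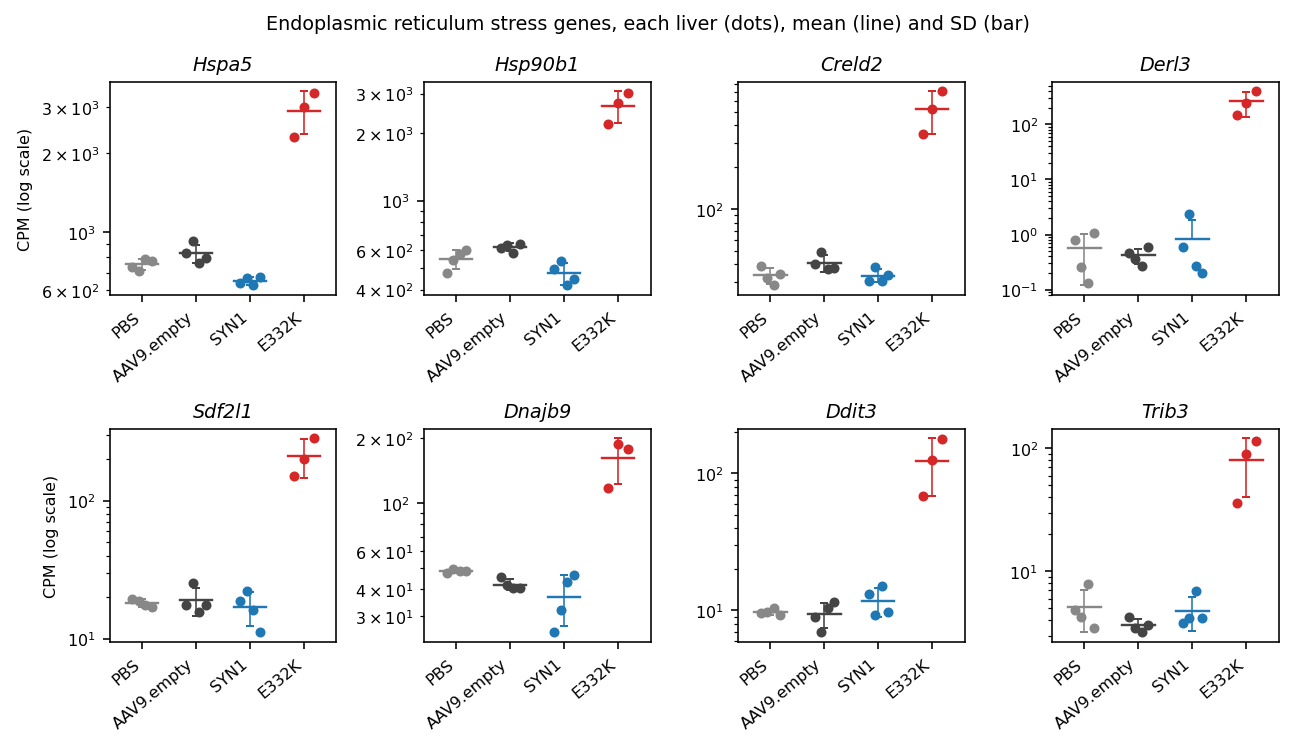
CPM of 8 ER stress genes (log axis, own scale in each panel) in every liver given PBS, AAV9.empty, rAAV9.Syn1.ST3GAL5.miR122BS (SYN1) or rAAV9.CB.ST3GAL5.E332K (E332K); dots are livers, lines are means and bars are SD, with the lower bar left out where the SD exceeds the mean. In all 8 panels the 3 E332K livers lie above every liver of the other groups.

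Promoter sequence is shown for the genes that rose because 3 short motifs of this response can be read in it. The ER stress response element (ERSE, CCAAT and CCACG with 9 bases of any kind between them) is bound by ATF6 with NF-Y, ERSE-II (ATTGG and CCACG with 1 base between them) is a compact form of it, and the C/EBP-ATF response element (CARE, TTGCATCA) is bound by ATF4 with a C/EBP partner. Both strands were searched in RefSeq promoters of GRCm38.p6, from 250 bases before to 50 bases after each start. ERSE and ERSE-II shared no promoter. Of the 96 genes that were higher, 73 matched a promoter by symbol. ERSE was present in 9 of these 73 (12.3%), in 9 of the 22 matched members of the ER list (40.9%) and in 0 of the 9 matched genes that were lower. Apart from Zfp57 and Canx, the 9 that were higher and the 9 of the ER list were the same genes. ERSE was in 20 of the 11167 matched genes tested (0.179%) and in 37 of all 27025 genes (0.137%). The printed windows are 30 bases on the gene's strand, 5′ to 3′, with the fixed letters of the motif, in either orientation, in capitals.
Derl3, ERSE, chr10:75893237-75893266 (+): tctacCGTGGgacttccccATTGGctagcc
Creld2, ERSE, chr15:88819515-88819544 (+): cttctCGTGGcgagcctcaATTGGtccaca
Hspa5, ERSE, chr2:34772020-34772049 (+): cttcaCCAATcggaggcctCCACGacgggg
Hsp90b1, first ERSE, chr10:86705527-86705556 (-): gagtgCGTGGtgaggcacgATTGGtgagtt
Hsp90b1, second ERSE, chr10:86705632-86705661 (-): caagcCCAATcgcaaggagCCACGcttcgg
Calr, ERSE, chr8:84847069-84847098 (-): caacgCGTGGtcgaccctcATTGGcccata
Syvn1, ERSE, chr19:6046527-6046556 (+): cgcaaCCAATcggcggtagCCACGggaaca
Dnajc3, ERSE, chr14:118937822-118937851 (+): cacaaCCAATcagcgccaaCCACGacccgg
Pdia6, ERSE, chr12:17266486-17266515 (+): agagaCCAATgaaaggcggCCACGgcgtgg
Canx, ERSE, chr11:50325794-50325823 (-): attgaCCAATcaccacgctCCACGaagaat
Herpud1, ERSE-II, chr8:94386368-94386397 (+): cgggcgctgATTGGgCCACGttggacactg
Dnajb11, ERSE-II, chr16:22857843-22857872 (+): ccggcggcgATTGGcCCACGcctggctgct
Canx is shown because it holds ERSE and missed the threshold (log2 0.32 ± 0.11, adjusted p = 0.194). The ninth gene that was higher with ERSE was Zfp57, which encodes a zinc finger protein of genomic imprinting and was at 5.1, 10.6 and 11 CPM against 1.81, 1.22, 1.68 and 2.08 CPM. ERSE-II was present in 2 of the 73 genes (2.74%), Herpud1 and Dnajb11, in 9 of the 11167 tested (0.0806%) and in 12 of 27025 (0.0444%). Matched letters say nothing of binding in these livers.

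The comparisons with AAV9.empty and with CB livers share the E332K or the SYN1 samples with the comparison above, so their values are given only side by side. Against AAV9.empty, 2216 genes (15% of those tested) differed in E332K livers at the adjusted p alone and 783 (5.38%) in SYN1 livers. Of these, 455 (3.08%, or 1.84% higher) and 86 (0.591%, or 0.46% higher) also passed the fold threshold, and the 86 became 54 without AAV9.empty 2. Of the ER list, 23 of 26 members were higher in E332K than in AAV9.empty livers, where 7.93% of all genes were, and 0 of 25 were higher in SYN1 livers, where 2.88% of all genes were. Against AAV9.empty, 3 of those 25 were lower in SYN1 livers (2.5% of all genes), namely Hspa5 (1.26-fold), Hsp90b1 (1.3-fold) and Pdia4 (1.43-fold). The mean of Hspa5 was 828 ± 67.9 CPM (SD, n = 4) in AAV9.empty, 652 ± 24 CPM (n = 4) in SYN1, 962 ± 211 CPM (n = 3) in CB and 2896 ± 541 CPM (n = 3) in E332K livers.

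CB livers, whose vector lacks the E332K change and has the same promoter name, were compared with E332K livers in the same way, and 2887 genes (19.6% of those tested) differed, 1408 (9.55%) of them higher and 1479 (10%) lower in CB livers. At both thresholds 1023 genes (6.94%, or 3.87% higher) differed, but 447 without E332K 3 and 596 without CB 1. Of the ER list, 19 of 26 members were lower in CB livers and 1, Eif2ak3, was higher (1.56-fold, adjusted p = 0.0487). Derl3 was at 1.53, 2.21 and 0.568 CPM in the CB livers and at 0.467, 0.366, 0.27 and 0.583 CPM in AAV9.empty livers. Creld2 was at 55.3, 83.7 and 35.2 CPM in CB livers, all below the lowest E332K liver. Both differences from E332K passed the test (adjusted p = 0.00127 for Derl3 and 0.0035 for Creld2).

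**Figure D3:**
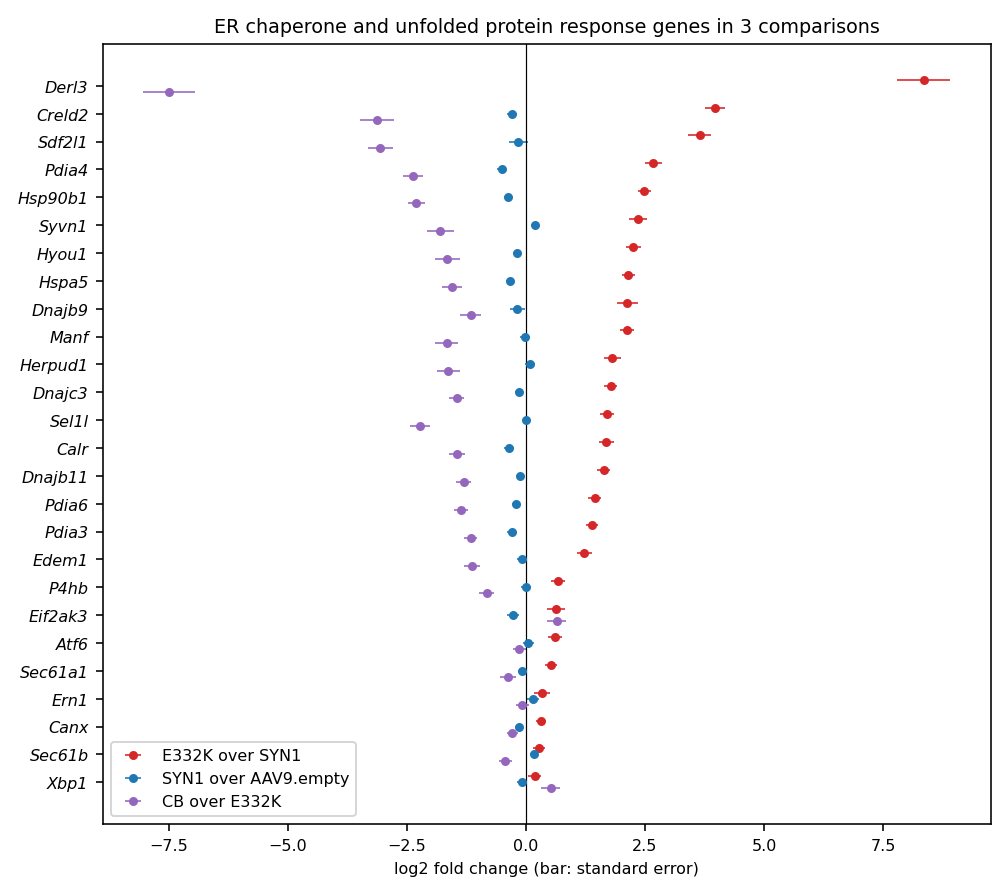
Log2 fold change with its standard error, taken from the F statistic, for the 26 listed genes of ER chaperones and the unfolded protein response. Shown are E332K over SYN1 (red), SYN1 over AAV9.empty (blue, 25 genes) and CB over E332K (purple). E332K and SYN1 livers each enter 2 of the 3 comparisons, so the colours are not independent. The red points run from 0.18 for Xbp1 to 8.36 for Derl3, and the blue points lie between -0.52 for Pdia4 and 0.20 for Syvn1.

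Of the 33 tested genes of ATF4 and CHOP, which carry the integrated stress response downstream of PERK, 6 were higher in E332K livers and 0 were lower, against 1.65% and 0.21% of all genes. The counts were 3 and 0 in limma's test on log2(TPM + 1) and 0 higher where that test had no filter. Ddit3, the gene of CHOP, was at 68.1, 125 and 179 CPM in the E332K livers and at 13.3, 9.22, 15 and 9.68 CPM in the SYN1 livers (10.5-fold, log2 3.39 ± 0.29, adjusted p = 0.000123). Trib3, a pseudokinase that CHOP induces, was at 36.2, 90.2 and 114 CPM against 3.79, 4.15, 6.94 and 4.17 CPM (16.7-fold, adjusted p = 0.000145). Nupr1, a stress-induced chromatin protein, was at 17.8, 48.1 and 49.3 CPM against 1.81, 4.03, 4.16 and 4.32 CPM (10.7-fold, adjusted p = 0.000627). E332K 1 was the lowest of its group in all 3 genes, and no SYN1 liver reached it. Chac1, which degrades glutathione, was 7.79-fold higher at a low level, 2.7, 4.83 and 8.23 CPM against 0.746, 0.794, 0.789 and 0.347 CPM (adjusted p = 0.00381). Exons of Ddit3 overlap Mars and Gm4189 on the opposite strand. The remaining members that rose were Gdf15, described with the p53 targets, and Wars, a tRNA synthetase (1.46-fold, adjusted p = 0.0399), which was picked after its values were seen.

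The other 27 tested members did not pass, and the median log2 difference over all 33 was 0.26. Atf4 mRNA was at 152, 159 and 151 CPM against 152, 141, 154 and 132 CPM (log2 0.09 ± 0.10, adjusted p = 0.748). The amino acid genes that ATF4 is known to raise included Asns, asparagine synthetase, with a log2 difference of -0.01 ± 0.12 (adjusted p = 0.982), and Psat1, of serine synthesis, with 0.24 ± 0.15 (adjusted p = 0.518). Both sets of values overlapped. Fgf21, a liver hormone, was at 12.5, 31.2 and 19.7 CPM against 2.03, 2.99, 28.3 and 4.62 CPM, where SYN1 3 stood above the other SYN1 livers and above 2 of the E332K livers (adjusted p = 0.52). These 4 were chosen after their values were seen. Atf3, a transcription factor of the same response that was listed with the immediate-early genes, was at 8.81, 21.8 and 33.8 CPM against 3.47, 4.21, 2.63 and 3.03 CPM (6.43-fold, adjusted p = 0.00371).

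CARE was present in 6 of the 73 matched genes that were higher (8.22%) and in 7 of the 29 matched genes of the ATF4 and CHOP list (24.1%). It was in 91 of the 11167 matched genes tested (0.815%) and in 279 of 27025 genes (1.03%). The 6 that were higher were Atf3, Chac1, Nupr1, Herpud1, Igsf23 and Mcf2l, and the windows of the first 4 are shown as for ERSE.
Atf3, CARE, chr1:191183425-191183454 (-): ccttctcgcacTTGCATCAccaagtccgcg
Chac1, CARE, chr2:119351038-119351067 (+): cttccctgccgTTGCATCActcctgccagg
Nupr1, CARE, chr7:126625562-126625591 (-): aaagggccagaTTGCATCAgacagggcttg
Herpud1, CARE, chr8:94386306-94386335 (+): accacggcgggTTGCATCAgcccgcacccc
Of the list members with CARE, Chac1 and Nupr1 rose, and Aars, Fgf21, Pycr1, Slc7a11 and Vldlr did not pass the test.

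Lists of the secretory pathway were added after the values were seen, and some of their members are also in the ER list. In each of them 0 members were lower in E332K livers. The counts of members that were higher were 10 of 39 for ER folding enzymes and glycoprotein quality control, 10 of 31 for ER-associated degradation, 9 of 26 for COPII vesicles and cargo receptors, 5 of 39 for N-glycan assembly and transfer, 4 of 25 for the translocon, signal recognition and signal peptidase, and 1 of 11 for the COPI coat, against 1.65% of all genes. Their medians lay between 0.21 and 0.35 on the log2 scale. Ero1lb, an oxidase that supplies disulphide bonds, was at 75.5, 91.9 and 107 CPM against 23.4, 27.7, 26.3 and 22.2 CPM (3.67-fold, adjusted p = 2.11e-05). Kdelr3, a receptor that returns escaped ER chaperones from the Golgi, was at 10.4, 13.7 and 19.4 CPM against 3.73, 3.48, 5.47 and 4.57 CPM (3.33-fold, adjusted p = 0.00306). Gmppb, which makes GDP-mannose for glycans, was at 55.1, 64.2 and 85.4 CPM against 22.4, 28.3, 26.5 and 25.9 CPM (2.64-fold, adjusted p = 0.000574). In Ero1lb, Kdelr3 and Gmppb the groups did not overlap, as in 13.7% of all genes tested. Sec24d, a COPII coat subunit, was 2.0-fold higher (adjusted p = 0.00938) and Ssr3, of the translocon, 1.57-fold (adjusted p = 0.016).

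Without E332K 3 the translocon list had 0 members higher, COPII 2, N-glycan assembly 3, degradation 5 and folding enzymes 6, and the COPI coat had 0 in each of the 7 fits without 1 liver. Bhlha15, which encodes the secretory cell factor MIST1, and Atp2a2, the calcium pump of the ER, were outside every list and were picked after their values were seen. Bhlha15 was at 17.1, 19.4 and 30.2 CPM against 2.08, 5.19, 5.05 and 6.35 CPM (4.73-fold, adjusted p = 0.00343). Atp2a2 was at 334, 465 and 495 CPM against 191, 169, 162 and 156 CPM (2.54-fold, adjusted p = 0.000627).

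Of 31 tested genes of the acute-phase response, in which the liver makes plasma proteins in inflammation, 6 were higher in E332K livers and 0 were lower, against 1.65% and 0.21% of all genes, and the list median was 0.07. Saa1, a serum amyloid A protein, was at 45.4, 30.4 and 38.4 CPM in E332K livers and at 0.32, 0.488, 0.526 and 0.397 CPM in SYN1 livers (87-fold, log2 6.44 ± 0.21, adjusted p = 7.28e-08). Saa3 was at 60.4, 38.9 and 63.8 CPM against 1.17, 2.87, 1.05 and 1.29 CPM (34.6-fold, adjusted p = 5.38e-06), and Orm1, an orosomucoid, at 27, 22.5 and 28.4 CPM against 2.03, 2.26, 0.999 and 1.29 CPM (15.9-fold, adjusted p = 5.38e-06). Unlike in Derl3 and Creld2, E332K 2 was the lowest of its group in all 3. Saa2 and Orm2 had 3 counts each over the 4 SYN1 livers, against 527 and 132 over the 3 E332K livers. Scaled for depth, the ratio was 223 for Saa2 (95% interval 76.0 to 1087) and 56.0 for Orm2 (18.7 to 275), intervals that cover counting error only. Of the 31-base stretches of Saa1 and Saa2 transcripts 46.8% and 44.5% are shared, mostly with each other, and of those of Orm1 and Orm2 27.5% and 34.1%, so RSEM's split within each pair is uncertain.

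Hpx, which encodes the haem-binding hemopexin, was the sixth member and changed less, from 2795, 3419, 3047 and 3044 CPM in SYN1 livers to 5496, 5152 and 5781 CPM in E332K livers (1.78-fold, adjusted p = 0.00326). The other 25 tested members did not pass. Among them Lcn2 (log2 0.14 ± 0.11, adjusted p = 0.612), the fibrinogen gene Fgb (log2 0.08 ± 0.13, adjusted p = 0.847) and Socs3, the feedback inhibitor of IL-6 signalling (log2 -0.31 ± 0.22, adjusted p = 0.57), had overlapping values and were picked after these were seen. The CB values of these genes are given side by side, since the E332K livers are shared. There Saa1 was at 22.6, 78.7 and 30.2 CPM and Orm1 at 22.9, 77.9 and 42.9 CPM, with CB 2 the highest, and neither passed the test against E332K livers (adjusted p = 0.716 and 0.107). In AAV9.empty livers Saa1 was at 0.514, 0.105, 0.378 and 0.194 CPM.

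Of the 19 tested cytokines and chemokines, 2 were higher and 0 were lower, against 1.65% and 0.21% of all genes. Ccl5, a chemokine for T cells and monocytes, was at 25.6, 19 and 14.4 CPM against 4.9, 6.66, 5.58 and 6.05 CPM (3.4-fold, adjusted p = 0.000919). Il23a, a subunit of IL-23, was at 1.7, 1.25 and 2.83 CPM against 0.107, 0.244, 0 and 0.149 CPM (log2 3.90 ± 0.60, adjusted p = 0.00751), and it missed the threshold without E332K 3. Tnf was at 0.50, 0.897 and 0.43 CPM against 1.28, 2.01, 1.16 and 0.993 CPM (adjusted p = 0.237), Il1a at 6.06, 5.53 and 4.24 CPM against 6.82, 5.86, 4.68 and 4.71 CPM (adjusted p = 0.932) and Ccl2 at 1.7, 0.947 and 0.983 CPM against 0.746, 2.99, 2.1 and 1.39 CPM (adjusted p = 0.64). None of these 3 passed, though every E332K liver was below every SYN1 liver for Tnf, and Ccl3, at 0.30, 0.897 and 0.676 CPM against 0.32, 0.427, 0.473 and 0.496 CPM, was too low to be tested here. Timp1, an inhibitor of matrix proteases from the stellate cell list, was at 23.8, 16.4 and 14.5 CPM against 1.71, 2.63, 2.05 and 5.36 CPM (6.17-fold, adjusted p = 0.00232). It was the only one of the 18 genes of that list to pass. Only 5 of the 18 had a log2 difference above 0, and the list median was -0.14. T and NK cell markers summed to 64.0 to 99.5 CPM in E332K and 42.5 to 65.0 CPM in SYN1 livers, with 0 of 13 past the test, and their part in Ccl5 was not tested.

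**Figure D4:**
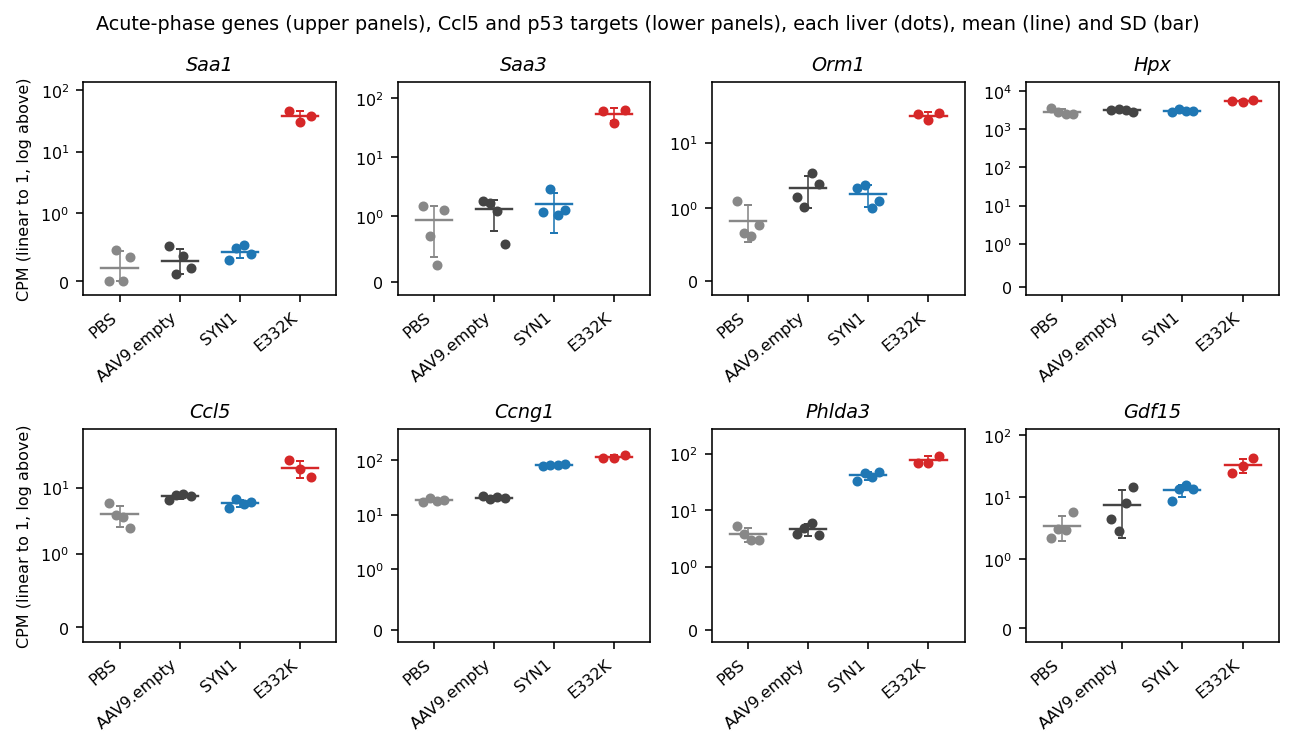
CPM of 4 acute-phase genes (upper panels), Ccl5 and 3 p53 targets (lower panels) in every liver of the PBS, AAV9.empty, SYN1 and E332K groups, on an axis that is linear up to 1 and logarithmic above; dots are livers, lines means and bars SD. For Saa1, Saa3 and Orm1 the 3 E332K livers lie above 22 CPM and every other plotted liver under 4 CPM, whereas Ccng1 and Phlda3 are above the PBS and AAV9.empty livers in both SYN1 and E332K livers.

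Of 30 p53 targets, 23 were higher in E332K and 21 in SYN1 livers than in AAV9.empty livers, against 7.93% and 2.88% of all genes. Between the 2 vectors 3 of 30 differed, all higher in E332K livers (1.65% of all genes), which fell to 1 without E332K 3, and the list median was 0.26. Ccng1, cyclin G1, was at 107, 109 and 125 CPM in E332K, 78.3, 80.5, 81.7 and 85.6 CPM in SYN1 and 21.6, 19.2, 21.2 and 20.3 CPM in AAV9.empty livers. Its difference between the vectors was 1.39-fold (log2 0.48 ± 0.09, adjusted p = 0.0246) and passed the threshold in 1 of the 7 fits without 1 liver. Phlda3, an inhibitor of AKT, was at 68.2, 67.1 and 91.4 CPM in E332K, 33.4, 45.6, 38.1 and 47.5 CPM in SYN1 and 3.79, 4.92, 6.05 and 3.69 CPM in AAV9.empty livers (1.83-fold between the vectors, adjusted p = 0.0126, lost without E332K 3). Gdf15, a stress cytokine also listed with ATF4 and CHOP, was at 25.1, 32 and 42.6 CPM against 8.8, 13.5, 15.8 and 13.9 CPM (2.55-fold, adjusted p = 0.00723).

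In the other stress lists single genes passed, where 1.65% of all genes were higher. Of 18 heat shock genes of the cytosol, 1 was higher, Bag3, a cochaperone of HSP70, at 22.9, 33.1 and 44.7 CPM against 16.1, 15, 16.1 and 13.7 CPM (2.19-fold, adjusted p = 0.0101). Of 20 tested NRF2 genes, 1 was higher, Srxn1 (1.74-fold, adjusted p = 0.0484), which passed in 1 of the 7 fits without 1 liver. Of 26 immediate-early genes, Atf3 and Jun (1.7-fold, adjusted p = 0.00328) were higher. Of 39 genes of cell death, 1 was higher, Tnfrsf12a, the TWEAK receptor, at 42.2, 53.3 and 79.6 CPM against 17.2, 20.3, 27 and 27.7 CPM (2.52-fold, adjusted p = 0.0101). None of the 31 proteasome genes, 31 cell cycle genes or 39 respiratory chain genes passed.

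Further genes with large differences were at low levels. Hapln4, a matrix link protein, was at 4.35, 5.58 and 8.05 CPM against 0.64, 0.122, 0.263 and 0.744 CPM (log2 3.70 ± 0.42, adjusted p = 0.00121). Sprr1a, a cornified envelope protein, was at 1.1, 2.99 and 4.61 CPM against 0.267, 0.366, 0.105 and 0.149 CPM (log2 3.69 ± 0.56, adjusted p = 0.00714). Arfgef3 was at 1.6, 2.04 and 3.26 CPM against 0, 0.488, 0.0526 and 0.149 CPM (log2 3.75 ± 0.67, adjusted p = 0.0176), and it missed the threshold without E332K 2, E332K 3 or SYN1 4. No overlap of the groups was a condition for naming these 3 genes.

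In metabolism, 3 of 24 genes of cholesterol synthesis were higher in E332K livers and 0 were lower, against 1.65% and 0.21% of all genes. Fdps, farnesyl diphosphate synthase, was at 294, 184 and 328 CPM against 64.4, 103, 109.5 and 90.4 CPM (2.92-fold, adjusted p = 0.00381). Mvd was at 31.6, 41.3 and 57 CPM against 7.25, 10.5, 18 and 10.4 CPM (3.74-fold, adjusted p = 0.00463), and Lss, lanosterol synthase, was 1.94-fold higher (adjusted p = 0.0144) but missed the threshold without E332K 1, E332K 3 or SYN1 1. Of Fdps, 27.9% of the 31-base stretches are shared, mostly with Gm43738. Against AAV9.empty, 9 of 24 members were lower in SYN1 livers (2.5% of all genes), and in E332K livers 3 were higher (7.93%) and 7 lower (7.09%).

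Single members of other liver lists passed, where 1.65% of all genes were higher and 0.21% lower. Angptl4, an inhibitor of lipoprotein lipase, was 1.57-fold higher (adjusted p = 0.0423), 1 of 30 genes of fatty acid oxidation. Cyp2d9 was 1.73-fold higher (adjusted p = 0.0227), 1 of 34 P450 and phase II enzymes, with 34.8% of its 31-base stretches shared with other genes. Mlxipl, the gene of ChREBP, was at 41.3, 43.3 and 37.2 CPM against 59.6, 49.5, 65.2 and 57.5 CPM (log2 -0.51 ± 0.11, adjusted p = 0.0452), 1 of 16 genes of lipogenesis. Bckdhb, of branched-chain amino acid breakdown, was at 34.1, 34.1 and 34.2 CPM against 54.2, 53.1, 44.7 and 46.3 CPM (log2 -0.54 ± 0.10, adjusted p = 0.0205), 1 of 50 genes of the urea cycle and amino acid breakdown, of which 5 passed without SYN1 3. Of 19 clock genes, Nr1d1, the gene of REV-ERB alpha (2.37-fold, adjusted p = 0.00779), and Nfil3 (1.7-fold, adjusted p = 0.0249) were higher, and Nr1d1 overlaps Thra on the opposite strand. All of these but Nr1d1 lost the call in at least 4 of the 7 fits without 1 liver. None of the 22 genes of glucose metabolism or the 22 of bile acids passed.

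**Figure D5:**
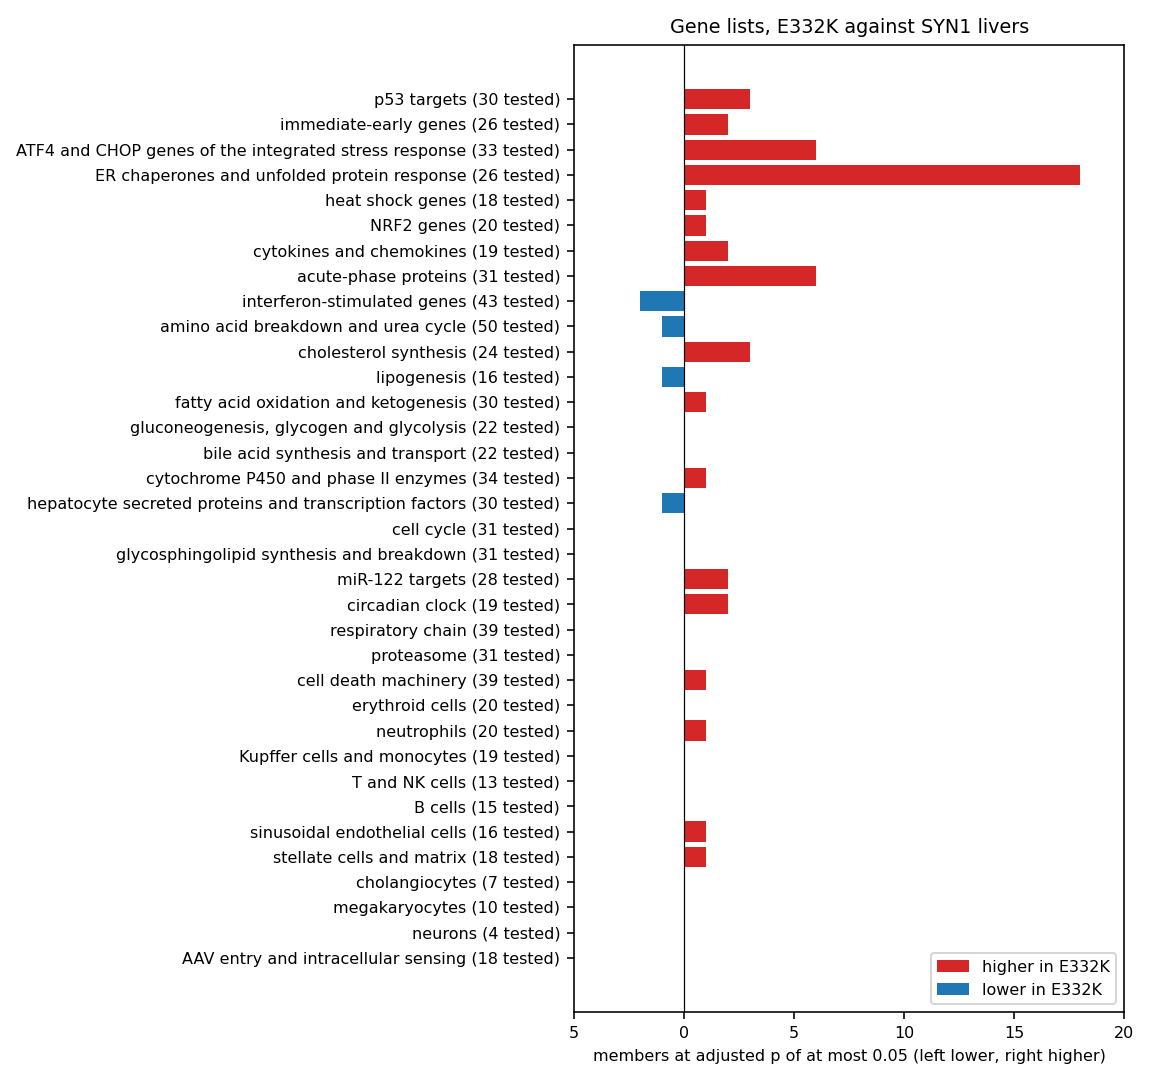
Number of genes at an adjusted p of at most 0.05 in E332K against SYN1 livers for each of 35 lists, without the 6 added lists of the secretory pathway, to the right where higher (red) and to the left where lower (blue) in E332K livers, with the number tested beside each name. The ER list has 18 of 26 members higher, the next longest bars of these 35 have 6, and 2 interferon-stimulated genes are the most in the lower direction.

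Of the 12 genes that were lower at both thresholds, most were at a low level. Igf1, the hepatic growth factor, was the only one of 30 hepatocyte genes to pass, where 0.21% of all genes were lower at the adjusted p alone. It was at 42.9, 31.9 and 24.9 CPM in E332K and 66.6, 81.6, 58.8 and 61.8 CPM in SYN1 livers (2.02-fold lower, log2 -1.01 ± 0.18, adjusted p = 0.016). In AAV9.empty livers it was at 119, 113, 123 and 95 CPM, above both. Slc22a7, the transporter OAT2, was at 0.751, 0.598 and 0.368 CPM against 4.74, 4.03, 1.53 and 4.02 CPM (log2 -2.61 ± 0.43, adjusted p = 0.0117). Car5a, mitochondrial carbonic anhydrase, was at 0.951, 0.847 and 0.737 CPM against 3.41, 2.56, 1.95 and 2.13 CPM and 6.73, 5.34, 6.27 and 5.44 CPM in AAV9.empty livers (log2 -1.56 ± 0.31 between the vectors, adjusted p = 0.031). Npnt, a matrix protein, was at 7.66, 10.8 and 8.41 CPM against 24.8, 12.4, 16.7 and 18.2 CPM (log2 -1.01 ± 0.22, adjusted p = 0.0424), and Snhg4, a noncoding host of small nucleolar RNAs, at 3.05, 2.94 and 2.76 CPM against 9.44, 5.62, 7.26 and 6.35 CPM (log2 -1.29 ± 0.21, adjusted p = 0.0101).

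The others were Rpgrip1 (log2 -2.42), Car7 (-1.67), Btla (-1.09), the interferon-stimulated Xaf1 (-1.11) and Gbp3 (-1.08), and the antisense genes Gm37335 (-2.22) and Gm15318 (-1.17), whose counts cannot be told from those of Hs6st1 and Tff1 without strand. Exons of Rpgrip1 and Car5a likewise overlap Supt16 and BC048644 on the opposite strand. In none of the 12 did the groups overlap, which was a condition for the largest differences named. The groups did not overlap in 13.7% of all genes tested. None of the 12 kept both thresholds without E332K 3, and Snhg4, Slc22a7 and Igf1 kept the call in 6, 5 and 4 of the 7 fits without 1 liver.

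Of 43 interferon-stimulated genes, 2 were lower in E332K livers and 0 were higher, against 0.21% and 1.65% of all genes. The median log2 difference was -0.59, with 39 members below 0. Xaf1 was at 2.45, 3.44 and 3.07 CPM against 4.69, 7.88, 6.31 and 6.95 CPM (adjusted p = 0.0287) and Gbp3 at 4.15, 3.44 and 2.64 CPM against 6.5, 8.98, 6.73 and 6.85 CPM (adjusted p = 0.0234). The number past the threshold ranged from 0 to 11 in fits without 1 liver, with 0 without E332K 2, E332K 3 or SYN1 4 and 11 without SYN1 1, and was 12 by DESeq2. Against AAV9.empty, 31 of 43 were lower in E332K livers, where 7.09% of all genes were, and 3 of 43 in SYN1 livers, where 2.5% were.

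Genes tied to the design of the vectors were read next. Endogenous St3gal5 was at 176, 195 and 136 CPM in E332K and 180.1, 161, 189 and 182 CPM in SYN1 livers (log2 -0.08 ± 0.13, adjusted p = 0.853), and the sign of this difference turned without E332K 3 (0.06). None of 31 genes of glycosphingolipid synthesis and breakdown and none of 18 genes of AAV entry and sensing passed. Of 28 miR-122 targets, which this microRNA is known to repress, Tmed3 (1.57-fold, adjusted p = 0.0261) and Ccng1, also a p53 target, were higher in E332K livers, the group without these sites. The list median was -0.03, and 1.65% of all genes were higher. Without E332K 1, E332K 3, SYN1 1, SYN1 3 or SYN1 4, none of the 28 passed. Neuron markers, the cells in which the Syn1 promoter is active, summed to 7.06 to 8.54 CPM in E332K and 6.47 to 8.34 CPM in SYN1 livers.

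Fewer cells of a type and less RNA per cell cannot be told apart in these bulk libraries. The summed markers of hepatocytes were at 84726 to 98376 CPM in E332K and 92557 to 113092 CPM in SYN1 livers. Of the markers of other cell types, Fcnb of neutrophils (1.66-fold, adjusted p = 0.0424) and Lyve1 of sinusoidal endothelium (1.58-fold, adjusted p = 0.0247) were higher, in 1 and 3 of the 7 fits without 1 liver, besides Timp1, and 0 of the tested markers of erythroid cells, Kupffer cells and monocytes, T and NK cells, B cells, cholangiocytes, megakaryocytes and neurons passed. Log2 differences were above 0 in 19 of 20 neutrophil, 16 of 16 sinusoidal endothelial and 5 of 18 stellate cell genes. They were also above 0 in 17 of 20 erythroid, 12 of 19 Kupffer cell and monocyte and 11 of 13 T and NK cell genes. For B cells the count was 2 of 15, for cholangiocytes 2 of 7, for megakaryocytes 1 of 10 and for neurons 2 of 4. The median log2 difference over all genes was -0.000575, and 1.65% of all genes were higher at the adjusted p. The erythroid markers varied within both groups, with summed levels of 29795 to 62159 CPM in E332K and 28401 to 55947 CPM in SYN1 livers. With an erythroid score as a covariate, 22 members of the ER list and 8 acute-phase proteins were higher.

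Gm47283, a gene on the Y chromosome (chrY:90784738-90816464), was at 30.2, 11.6 and 10.1 CPM in E332K livers and at 21.6, 31.8, 0 and 0 CPM in SYN1 livers, with 0 in SYN1 3 and SYN1 4. Of its 31-base stretches 46.8% are shared with other genes, mostly Gm21887. Ddx3y, another gene of the Y chromosome, chosen after its values were seen, was at 28.4 to 39.9 CPM in all 7 livers. It was at 39.5, 34.6, 39.9 and 39.7 CPM in SYN1 1 to 4, and the cause of the zeros of Gm47283 was not tested. Erdr1 was likewise at 0 in SYN1 3 and SYN1 4, and at 5.66, 1.94 and 5.4 CPM in E332K livers, whereas Mid1 was at 10.8, 3.94 and 4.05 CPM against 5.86, 7.39, 1.79 and 3.47 CPM. None of these 3 passed the test (adjusted p = 0.913, 0.815 and 0.715). Among the 5 livers with Gm47283 counts, the ER list again had 18 members higher and the acute-phase list 6.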

How the data were processed

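Liver mRNA of 22 mouse pups in 6 groups was sequenced, and the 3 E332K and 4 SYN1 livers were compared. Per the methods and the labels, the authors trimmed reads with Trimmomatic, mapped them to mm10 with STAR and quantified GENCODE transcripts with RSEM (versions and GENCODE release not given in the sources used here). They deposited expected counts per gene, which are not scaled for depth, and TPM, which RSEM corrects for transcript length and scales to the same total in every library. Reads were not counted by strand. Of the expected counts 5.69% were not whole and were rounded.

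The tests were edgeR (4.0.16, R 4.3.3) quasi-likelihood F-tests with TMM factors and filterByExpr on the groups compared, with Benjamini-Hochberg adjustment over all genes tested. The threshold was an adjusted p of 0.05, with a 2-fold change required as well where stated. Fold changes are edgeR's fitted values. The quasi-likelihood F-test gives no standard error. Each SE is therefore the absolute log2 fold change divided by the square root of its F statistic. The same holds for the bars in the plot of log2 fold changes of the ER list. These SE restate the test and are not a separate measure of spread. CPM were scaled with TMM factors over all 22 libraries. Alternatives used DESeq2 (1.42.0) and limma (3.58.1) on log2(TPM + 1), where a fold is understated for low genes. On simulated counts for 14767 genes, 78% of 100 genes changed 2-fold and 91% of 100 changed 4-fold passed the adjusted p, with 15 unchanged genes. Of the unchanged genes, 9 passed both thresholds. The changed genes were drawn from those with a mean count of at least 10, and their share past both thresholds was not computed. All livers of a group differed from each other by more than sampling noise (chi-square per gene 9.46 to 67.0).

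Members and gene lists were chosen with earlier results of these data known. Genes named were the 12 largest differences in each direction among those past both thresholds with no overlap and at least 1 CPM in the higher group, St3gal5, Tnf, Il1a, Ccl2, Ccl3, Gm47283, Erdr1, Mid1 and up to 4 genes per list with the smallest adjusted p (all where at most 5 passed). Positions are from GENCODE vM21 on GRCm38, which held 98.7% of the transcript IDs in the files, and promoters from RefSeq. Shared 31-base stretches were counted over vM21 transcripts. Intervals of count ratios are exact and cover counting error only.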

Additional observations from a re-analysis of the deposited data

Results flagged for a closer look

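Among 60 named genes, 7 had 1 SYN1 liver far from the other 3, by the gap to its nearest neighbour over the range of the group (above 0.829), a test that chance passes in about 1 in 20 groups of 4. SYN1 2 was the highest for Pdia4 (195 CPM, against 147 to 150.2 CPM in the others), Saa3 (2.87 CPM, against 1.05 to 1.29), Gbp3 (8.98 CPM, against 6.50 to 6.85) and Orm2 (0.183 CPM, against 0 in the others). SYN1 3 was the highest for Trib3 (6.94 CPM, against 3.79 to 4.17). SYN1 1 was the lowest for Nupr1 (1.81 CPM, against 4.03 to 4.32) and SYN1 4 for Chac1 (0.347 CPM, against 0.746 to 0.794). SYN1 2 and SYN1 3 are also the livers with the stomach gene Cym and the muscle gene Acta1, and the part of this in the values above was not tested. For Pdia4, Saa3, Orm2, Trib3, Nupr1 and Chac1 every E332K liver lay above the highest SYN1 liver, and for Gbp3 every one lay below the lowest SYN1 liver. Saa3, Orm2, Trib3 and Gbp3 are among the largest differences, for which no overlap was a condition.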

How the results depend on the processing

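The 108 genes past both thresholds, 96 higher and 12 lower, became 139 by DESeq2 (102 and 37), 158 without a filter on low counts (117 and 41), 119 with all 6 groups in the fit (102 and 17) and 201 with the erythroid score as a covariate (125 and 76). They became 51 by limma on log2(TPM + 1) (49 and 2), 36 with a pseudocount of 0.1 (34 and 2) and 22 without a filter (22 and 0), and 275 with no minimum fold change (244 and 31). Of the 108, DESeq2 shared 107 and the limma tests 50, 35 and 21. Without 1 liver the totals were 65 to 125, with 65 to 119 higher and 0 to 16 lower, and without E332K 3 62 of the 108 were shared. Without the liver of lowest erythroid score in each group, E332K 3 and SYN1 2, a choice made after the values were seen, 73 genes passed both thresholds (70 and 3), 67 of them among the 108. Among the 5 livers with Gm47283 counts 125 did (102 and 23), 82 of them among the 108. The genes lower in E332K livers were thus the least stable count. Of 59 named genes tested, DESeq2 and the fit without a filter left all 59 calls as they were, and limma without a filter 17.

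Equal replicate numbers did not go together between E332K and SYN1 livers (correlations of deviations -0.05, -0.34 and -0.22), so they were not taken as pairs. With the number as a replicate block, 78 genes passed (73 and 5), 70 of them among the 108, and 17 genes of the ER list, 5 of the ATF4 and CHOP list and 5 acute-phase proteins were higher.

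Without 1 liver, SYN1 against AAV9.empty had 54 to 97 genes and CB against E332K 447 to 1430. The sign turned for 5 genes that did not pass. The log2 difference of St3gal5 was -0.19 to 0.059 without 1 liver, positive without E332K 3, and 0.012 without E332K 3 and SYN1 2. That of Il1a was -0.17 to 0.073, positive without E332K 3 or SYN1 1, and 0.10 without E332K 3 and SYN1 2. That of Gm47283 was -0.29 to 1.28, negative without E332K 1, SYN1 3 or SYN1 4, and that of Mid1 -0.21 to 0.77, negative without E332K 1. Among livers with Gm47283 counts it was -0.62 for Gm47283, -0.33 for Erdr1 and -0.076 for Mid1. The causes were not tested. With 3 and 4 livers and 17164502 to 20717386 counts, differences of genes near 1 CPM were the least precise.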

Other observations

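Some genes outside the lists, chosen after their values were seen, also passed both thresholds and are known to act in or near the ER. Nucb2, a calcium-binding secretory protein, was at 17.3, 17.9 and 25.5 CPM in E332K and 3.84, 4.64, 4.31 and 3.23 CPM in SYN1 livers (log2 2.34 ± 0.18, adjusted p = 5.11e-05 by edgeR). Wfs1, the ER membrane protein wolframin, was at 14.9, 23.3 and 29.5 CPM against 5.92, 5.37, 6.94 and 8.54 CPM (log2 1.74 ± 0.22, adjusted p = 0.00267). Ficd, the enzyme that AMPylates BiP, was at 14.4, 20.1 and 21.3 CPM against 6.72, 8.91, 6.15 and 8.78 CPM (log2 1.28 ± 0.18, adjusted p = 0.00398). Slc35b1, which carries ATP into the ER, was at 73, 56.3 and 79.3 CPM against 30.2, 36.7, 35.5 and 32.4 CPM (log2 1.05 ± 0.13, adjusted p = 0.00184). No E332K liver overlapped the SYN1 livers in these 4 genes, picked from those past both thresholds. The groups did not overlap in 13.7% of all genes tested.

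Genes of lipid handling were among them as well. Ormdl2, of the family that restrains serine palmitoyltransferase at the start of sphingolipid synthesis, was at 44.6, 47.7 and 78 CPM against 20.7, 22.6, 21.7 and 21.2 CPM (log2 1.40 ± 0.17, adjusted p = 0.00191). Lmf1, which matures lipases in the ER, was at 42.3, 36.7 and 55.3 CPM against 20.5, 21.4, 21.5 and 21.3 CPM (log2 1.08 ± 0.13, adjusted p = 0.00191). Cidec, a lipid droplet protein, was at 6.11, 11.7 and 10.3 CPM against 2.45, 2.01, 4.89 and 3.77 CPM (log2 1.5 ± 0.30, adjusted p = 0.0329). The lowest E332K liver was above the highest SYN1 liver in all 3, and 13.7% of all genes tested had no overlap in either direction. Nrg1, a growth factor of the ErbB receptors, was at 3.45, 6.18 and 6.2 CPM against 1.76, 2.32, 2.26 and 1.79 CPM (log2 1.37 ± 0.25, adjusted p = 0.0205), and Btc, betacellulin, another ErbB ligand, at 2.3, 2.24 and 2.4 CPM against 0.746, 0.855, 1.21 and 0.744 CPM (log2 1.37 ± 0.30, adjusted p = 0.0451). Gm10698, a Tmed2 pseudogene whose 31-base stretches are all shared with other genes, also passed (adjusted p = 0.0286), and its counts are uncertain.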
